A study of Mus musculus with 12 samples.

Results

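The 10 genes described here encode plasma proteins of blood clotting and of its control: the 3 chains of fibrinogen (Fga, Fgb and Fgg), the clotting factors prothrombin (F2), factor V (F5), factor IX (F9) and factor XI (F11), the inhibitors antithrombin (Serpinc1) and protein C (Proc), and plasminogen (Plg). They were chosen by name, as the rows of the deposited table with these symbols, and make up 10 of its 54838 genes. All 10 were among the 14643 genes that passed the filter on low counts and were tested. RNA from mouse liver was sequenced in 12 libraries, 4 each labelled DMH, DM and CTL, for a series whose title names anti-diabetic effects of a red, protoporphyrin-rich form of the green alga Chlamydomonas reinhardtii. DM and DMH are not written out in the labels, so the 3 groups keep those names here, and the labels give neither strain, sex, age, diet nor treatment for any group. Whether the 4 libraries of a group are 4 animals is not stated either, and p-values therefore refer to the spread between libraries, which could be technical alone.

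Hepatocytes make most clotting proteins and release them into plasma. Factors IX and XI act early in the cascade, factor V speeds the step that turns prothrombin into thrombin, and thrombin cuts fibrinogen into fibrin, the mesh of the clot. Antithrombin and activated protein C hold the cascade back, and plasmin, made from plasminogen, dissolves fibrin. The fibrinogen chains are also acute phase proteins: in mammals, interleukin-6 acting through STAT3 and C/EBP factors raises their transcription in hepatocytes.

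Library totals ran from 13430122 to 17038017 counts. The tissue check was met by 9 hepatocyte markers, whose summed level was 31227 to 42688 CPM (counts scaled to library size with trimmed-mean factors) in DMH libraries, 39537 to 52324 CPM in DM libraries and 42444 to 55931 CPM in CTL libraries. Because the extraction text names retinas, 10 retina genes were also checked. Their summed level was 10.8 to 29.7 CPM in DMH libraries, 5.31 to 19.7 CPM in DM libraries and 14.0 to 55.3 CPM in CTL libraries. 1 CTL library, CTL1, stood apart: each of 18 acute phase genes other than fibrinogen was highest there among CTL libraries, by 2.32 to 80.1 times the mean of the other 3, and summed neutrophil markers reached 331 CPM against 8.52 to 28.3 CPM in the other CTL libraries. The share of counts from the mitochondrial genome was 22.5% to 37.6% in DMH libraries, 18.7% to 33.7% in DM libraries and 7.88% to 23.5% in CTL libraries. Calls below are edgeR's on all 12 libraries unless DESeq2 or a left-out library is named.

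The 3 fibrinogen genes lie side by side within 42140 bases of mouse chromosome 3 (GRCm38, 83007724 to 83049863), Fgg and Fga on the plus strand and Fgb on the minus strand. Gaps of 11026 bases between Fgg and Fga and of 6513 bases between Fga and Fgb separate them. The other members are scattered: F2 on chromosome 2 (91625320 to 91636414), F5 and Serpinc1 on chromosome 1 (164151838 to 164220277, and 160978585 to 161005863), F9 on X (59999464 to 60030759), F11 on 8 (45241174 to 45262031), Proc on 18 (32123126 to 32139570) and Plg on 17 (12378608 to 12419385). RefSeq promoters (GRCm38.p6) were matched for 8 of the 10. The 250 bases before the RefSeq start are printed for the 3 chains, the members whose levels moved together, and for F9, which holds motifs of the same kinds. Windows are chr3:83025903-83026152 on the plus strand for Fga, chr3:83049864-83050113 on the minus strand for Fgb, chr3:83007474-83007723 on the plus strand for Fgg and chrX:59999214-59999463 on the plus strand for F9. Each is written 5′ to 3′, with motif matches in capitals.
Fga: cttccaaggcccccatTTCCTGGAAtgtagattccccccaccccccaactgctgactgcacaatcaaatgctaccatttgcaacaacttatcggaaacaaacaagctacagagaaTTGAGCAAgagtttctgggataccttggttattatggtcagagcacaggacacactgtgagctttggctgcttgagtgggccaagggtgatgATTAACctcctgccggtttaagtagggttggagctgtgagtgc
Fgb: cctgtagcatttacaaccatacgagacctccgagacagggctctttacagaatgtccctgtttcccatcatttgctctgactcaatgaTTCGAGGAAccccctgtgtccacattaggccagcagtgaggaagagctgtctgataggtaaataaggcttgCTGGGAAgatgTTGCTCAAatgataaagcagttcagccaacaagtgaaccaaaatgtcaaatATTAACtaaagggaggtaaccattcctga
Fgg: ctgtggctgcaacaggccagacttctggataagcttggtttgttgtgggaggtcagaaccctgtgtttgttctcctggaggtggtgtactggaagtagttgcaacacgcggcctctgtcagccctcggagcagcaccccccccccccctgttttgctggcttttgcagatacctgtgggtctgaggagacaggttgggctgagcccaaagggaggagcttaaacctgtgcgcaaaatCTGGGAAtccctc
F9: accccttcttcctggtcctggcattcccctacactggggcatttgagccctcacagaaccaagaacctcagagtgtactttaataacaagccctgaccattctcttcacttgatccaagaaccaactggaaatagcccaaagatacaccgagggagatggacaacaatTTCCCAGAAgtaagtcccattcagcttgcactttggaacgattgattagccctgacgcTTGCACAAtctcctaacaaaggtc

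6 short motifs were searched on both strands: a partial HNF1 site (GTTAAT), a C/EBP motif (TTGCNNAA), an interleukin-6 response element (CTGGGAA), a STAT motif (TTCNNNGAA), a TATA box (TATAAA) and an HNF4 motif (AAAGTCC). Fgb held the first 4 of these, Fga held the HNF1, C/EBP and STAT letters, and Fgg held the interleukin-6 element alone, 13 to 7 bases before the start. F9 held C/EBP, interleukin-6 and STAT matches, the last pair overlapping each other, F11 held a C/EBP match, and F2, F5 and Serpinc1 held none of the 6. In all 32851 promoter windows of the same length the shares with a match were 6.43% for HNF1, 9.56% for C/EBP, 9.1% for the interleukin-6 element, 7.02% for STAT, 12.4% for TATA and 3.58% for HNF4. A match describes letters and not a bound site, and GENCODE starts Fga further upstream than RefSeq, inside the printed window.

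**Figure D1:**
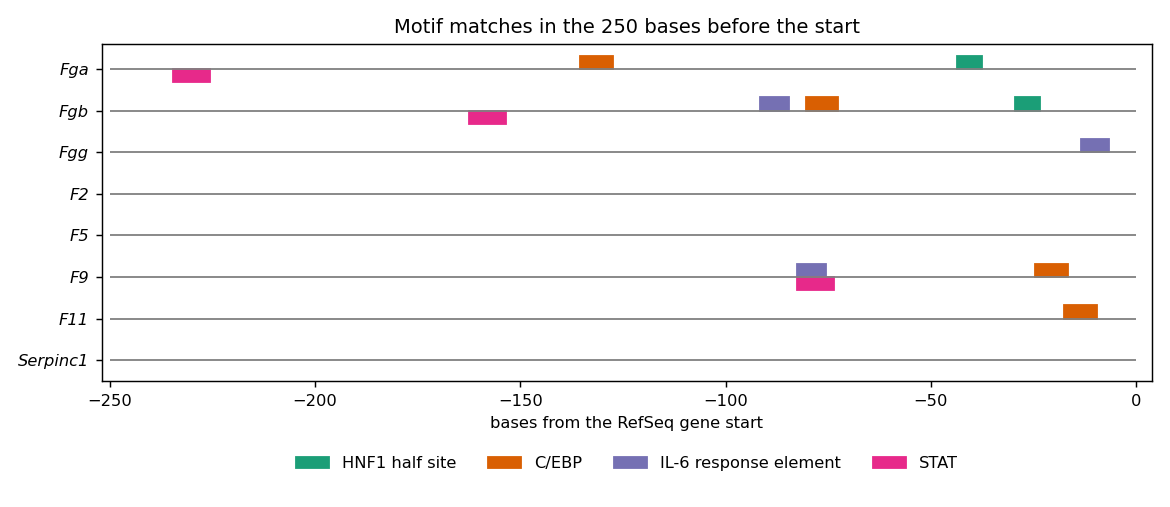
Matches of 4 motifs in the 250 bases before the RefSeq start of the 8 members with a promoter entry; the x axis is distance from the start in bases, and STAT matches are drawn under the line. Fgb has 4 matches, Fga and F9 have 3 each, Fgg and F11 have 1 each, and F2, F5 and Serpinc1 have none.

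Fibrinogen RNA was lower in DMH livers than in CTL livers for all 3 chains, and edgeR on all 12 libraries called no other member in that comparison, where DESeq2 also called F2 and Plg lower and edgeR without CTL1 called F11 higher. Fga fell to 474 ± 105 CPM in DMH libraries, against 2159 ± 2016 CPM in CTL libraries (SD, n = 4 each), Fgb to 1408 ± 194 CPM against 4501 ± 3707 CPM, and Fgg to 653 ± 131 CPM against 2486 ± 2102 CPM. The large CTL spread comes with CTL1. Without CTL1 the 3 chains were called lower too, when 4.27% of tested genes were, with log2 fold changes nearer 0.

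Fga, the alpha chain, had 414, 357, 558 and 565 CPM in DMH libraries, 890, 742, 707 and 773 CPM in DM libraries, and 5133, 1658, 785 and 1059 CPM in CTL libraries, each in the order of the library numbers. All DMH libraries lay below all DM and all CTL libraries, while DM and CTL overlapped. Its log2 fold change in DMH against CTL was -2.19 ± 0.49 (SE; edgeR adjusted p = 0.018), or -1.27 ± 0.26 without CTL1 (edgeR adjusted p = 0.0253).

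Fgb, the beta chain and the most abundant member by counts, had 1293, 1272, 1377 and 1692 CPM in DMH libraries, 1932, 1796, 1650 and 1786 CPM in DM libraries, and 10024, 3223, 2182 and 2575 CPM in CTL libraries. CTL lay above both other groups without overlap, whereas DMH4 reached into the DM range. The log2 fold change in DMH against CTL was -1.68 ± 0.42 (edgeR adjusted p = 0.0237), and -0.88 ± 0.19 without CTL1 (edgeR adjusted p = 0.0253).

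Fgg, the gamma chain, had 548, 600, 619 and 844 CPM in DMH libraries, 943, 885, 898 and 803 CPM in DM libraries, and 5569, 2078, 1126 and 1172 CPM in CTL libraries. Here too every CTL library exceeded every DMH and DM library, and DMH4 alone lay within the DM range. Its log2 fold change in DMH against CTL was -1.93 ± 0.44 (edgeR adjusted p = 0.0186), and -1.13 ± 0.24 without CTL1 (edgeR adjusted p = 0.0253). In bulk tissue, fewer cells of a type and less RNA per cell cannot be told apart.

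3 of the 10 members were thus called lower in DMH against CTL and 0 higher, beside 8.15% of all tested genes called lower and 7.25% called higher. Groups did not overlap for 4 members, all lower in DMH (the 3 chains and Plg), beside 10.9% of tested genes apart and lower and 8.64% apart and higher. The members' median log2 fold change was -0.55, beside -0.01 over all tested genes. DESeq2 on the same counts called 5 members lower, the chains with F2 and Plg, beside 10.7% of its genes called lower and 10.5% higher. The fibrinogen calls ended with CTL1 and CTL2 both left out (log2 fold changes -0.93 for Fga, -0.73 for Fgb and -0.79 for Fgg, edgeR adjusted p = 0.113 each), in a fit of the 8 DMH and CTL libraries alone (edgeR adjusted p = 0.0598 to 0.0723) and without DMH1 (0.0537 to 0.0644), and Fgb was not called without DMH2 (0.0565), nor Fgb (0.0618) and Fgg (0.0514) without DMH3. Fewer of all tested genes were called lower in these fits too. The shares were 0.013% without CTL1 and CTL2, 1.65% with the 8 libraries, 2.56% without DMH1, 4.23% without DMH2 and 2.76% without DMH3. With the mitochondrial percentage as a covariate, which moves with the groups, the values were -0.96, -0.75 and -0.79 for Fga, Fgb and Fgg (edgeR adjusted p = 0.533, 0.571 and 0.551), and the part of that percentage in the result cannot be told apart from the groups. The fit with that covariate called 0 of all tested genes lower and 0 higher.

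**Figure D2:**
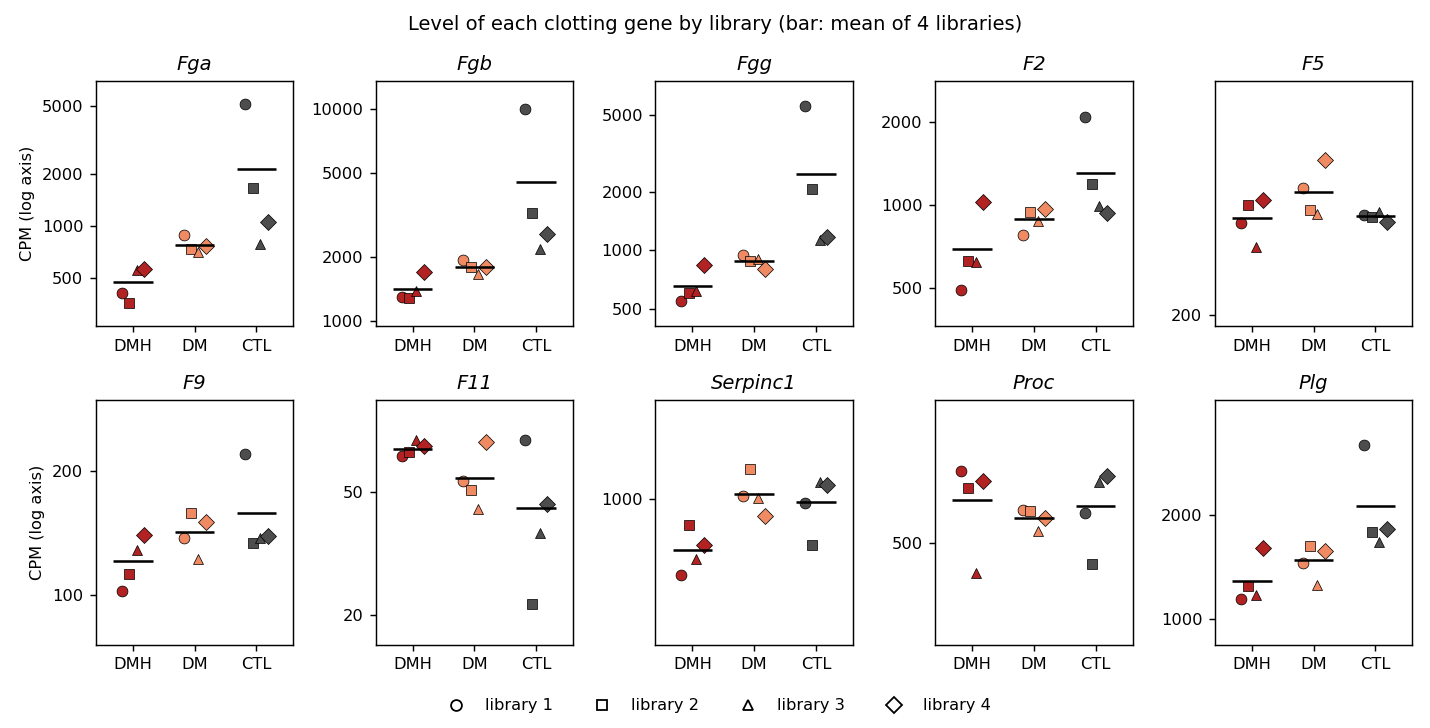
Level of each member in the 12 libraries, in CPM on a log axis scaled per gene; symbols give the library number and bars the mean of 4 libraries per group. Fga, Fgb and Fgg are highest in CTL1 (5133, 10024 and 5569 CPM), and their DMH means lie below their DM and CTL means, whereas F5 and Proc show nearly level means.

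In DM against CTL the mean levels of the 3 chains were lower in DM livers, and no member passed the edgeR test. Fga averaged 778 ± 79.4 CPM in DM libraries, Fgb 1791 ± 115 CPM and Fgg 882 ± 58.4 CPM (SD, n = 4). Their log2 fold changes in DM against CTL were -1.47 ± 0.48, -1.33 ± 0.42 and -1.49 ± 0.44, with edgeR adjusted p = 0.136, 0.125 and 0.115. Without CTL1 they were -0.58 ± 0.26, -0.56 ± 0.19 and -0.72 ± 0.24 (edgeR adjusted p = 0.312, 0.211 and 0.208). Of the 10 members 0 were called by edgeR, beside 0.0683% of all tested genes called lower and 0.15% higher, while 3 had an unadjusted p under 0.05, beside 18.8% of all tested genes. DESeq2 called 3, the fibrinogen chains (adjusted p = 0.0424, 0.034 and 0.0222), beside 3.1% of its genes called lower and 2.48% higher. Groups did not overlap for 3 members, Fgb, Fgg and Plg, all lower in DM, beside 7.72% of tested genes apart and lower and 7.32% apart and higher.

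DMH against DM gave 0 called members by edgeR or DESeq2, with unadjusted p under 0.05 for 0 members by edgeR, beside 20.6% of all tested genes, and 1 by DESeq2. In that comparison edgeR called 0.00683% of tested genes lower and 0.0273% higher, and DESeq2 2.4% lower and 2.87% higher. The chains stood at -0.72 ± 0.48 for Fga, -0.35 ± 0.41 for Fgb and -0.44 ± 0.43 for Fgg on the log2 scale (edgeR adjusted p = 0.41, 0.666 and 0.598). Groups were apart for 2 members, Fga and Serpinc1, both lower in DMH, beside 7.36% of tested genes apart and lower and 5.67% apart and higher. DM libraries serve as the second group here and as the first group in the comparison with CTL, and CTL serves in both comparisons against it, so values of the 3 comparisons are not independent.

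**Figure D3:**
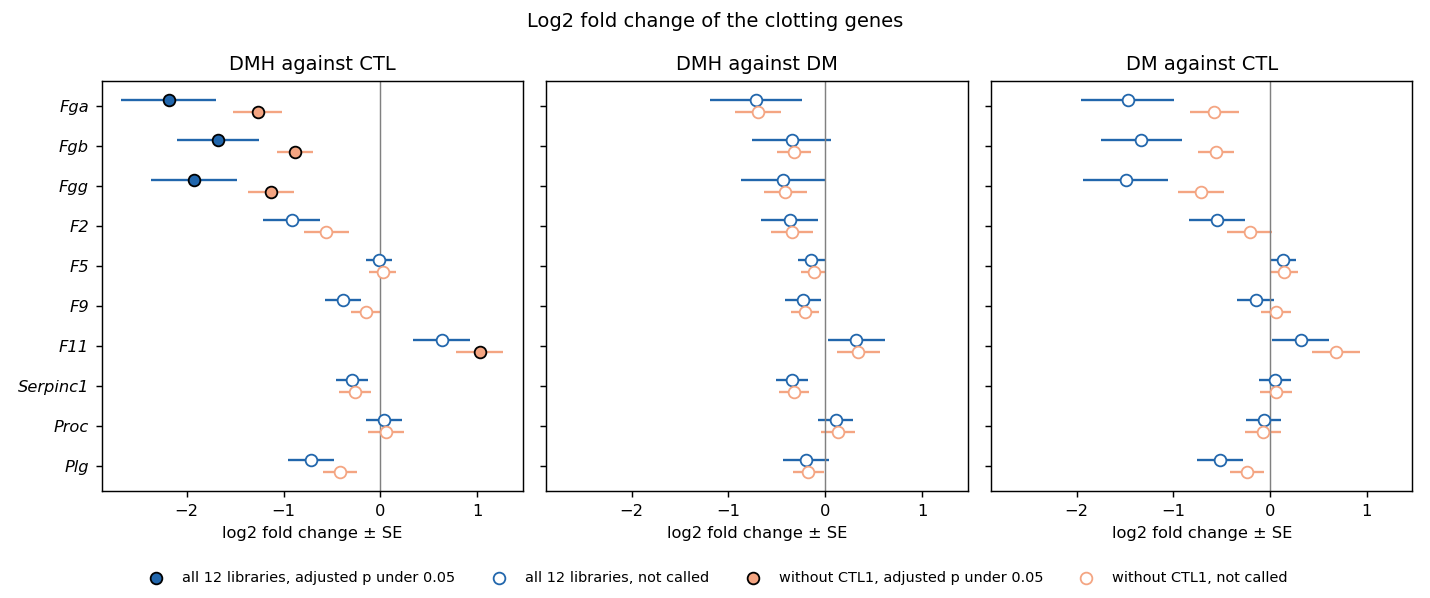
Log2 fold change with its standard error for the 10 members in the 3 comparisons, from all 12 libraries (blue) and without CTL1 (orange); filled points passed an edgeR adjusted p of 0.05. The 3 chains are filled in DMH against CTL in both fits, at -2.19 to -1.68 with all libraries and -1.27 to -0.88 without CTL1, and F11 is filled only without CTL1, at 1.03.

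Among the clotting factors, F2 (prothrombin, the precursor of thrombin) had 490, 625, 623 and 1026 CPM in DMH libraries, 777, 946, 878 and 966 CPM in DM libraries, and 2097, 1189, 997 and 937 CPM in CTL libraries. DMH1 to DMH3 lay below every other library, while DMH4 lay above every DM library and within the CTL range. The log2 fold change in DMH against CTL was -0.92 ± 0.29 (edgeR adjusted p = 0.0517), and DESeq2 called it lower (adjusted p = 0.0193). Without CTL1 the edgeR value was -0.56 ± 0.23 (adjusted p = 0.135), while it was called without CTL4 (0.0446) and without DMH4 (0.0213).

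F11 (factor XI, a protease of the contact-started arm) and Proc were the members whose mean was highest in DMH. F11 had 65.4, 67.4, 73.6 and 70.8 CPM in DMH libraries, 54.4, 50.7, 44.2 and 72.7 CPM in DM libraries, and 74.0, 21.7, 36.9 and 46.0 CPM in CTL libraries. CTL1 held the highest value of all 12 and CTL2 the lowest. Its log2 fold change in DMH against CTL was 0.64 ± 0.29 (edgeR adjusted p = 0.153), and without CTL1 it was called higher in DMH, at 1.03 ± 0.25 (edgeR adjusted p = 0.0331), when 5.28% of tested genes were called higher.

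F5 (factor V, a cofactor and not a protease) varied little between libraries. It had 283, 303, 259 and 309 CPM in DMH libraries, 323, 297, 294 and 360 CPM in DM libraries, and 292, 290, 296 and 284 CPM in CTL libraries, so that CTL1 did not stand apart. The log2 fold change in DMH against CTL was -0.01 ± 0.14 (edgeR adjusted p = 0.967). F9 (factor IX, a vitamin K-dependent protease) had 103, 113, 129 and 140 CPM in DMH libraries, 138, 158, 123 and 151 CPM in DM libraries, and 220, 134, 138 and 139 CPM in CTL libraries. All 3 groups overlapped. Its log2 fold change in DMH against CTL was -0.38 ± 0.19 (edgeR adjusted p = 0.177), and -0.15 ± 0.15 without CTL1.

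Of the proteins that limit or dissolve clots, Plg (plasminogen) had 1140, 1243, 1177 and 1604 CPM in DMH libraries, 1456, 1623, 1258 and 1576 CPM in DM libraries, and 3193, 1782, 1667 and 1826 CPM in CTL libraries. Every CTL library lay above every DMH and DM library. The log2 fold change in DMH against CTL was -0.71 ± 0.24 (edgeR adjusted p = 0.0612), DESeq2 called it lower (adjusted p = 0.0219), and without CTL1 edgeR gave -0.41 ± 0.18 (adjusted p = 0.143). It was also called by edgeR without DMH4 (adjusted p = 0.0497).

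Serpinc1 (antithrombin, the main inhibitor of thrombin) had 723, 893, 772 and 822 CPM in DMH libraries, 1014, 1135, 1003 and 932 CPM in DM libraries, and 985, 822, 1075 and 1061 CPM in CTL libraries. DMH lay below DM without overlap, but the log2 fold change of -0.35 ± 0.17 did not pass (edgeR adjusted p = 0.258). Proc (protein C, which when activated cuts factors V and VIII) had 678, 630, 440 and 648 CPM in DMH libraries, 573, 572, 525 and 555 CPM in DM libraries, and 567, 457, 646 and 663 CPM in CTL libraries. Its groups overlapped in every comparison, and the log2 fold change in DMH against CTL was 0.04 ± 0.18 (edgeR adjusted p = 0.907). Exons of Serpinc1 overlap Zbtb37 on the other strand, those of F5 overlap Gm16548, those of Plg overlap Slc22a3 and those of Fgg overlap Gm30097. The partners averaged 20.9, 16.4, 19.5 and 0.119 CPM, and no source used here gives the strand setting of the counting, so shared reads cannot be told apart.

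Levels between genes were compared per length, in the deposited FPKM (fragments scaled to gene length and library size). The median over 12 libraries was 490 FPKM for Fgb, 398 for Plg, 386 for Fgg, 191 for Fga, 173 for F2, 136 for Proc, 89.9 for Serpinc1, 52.0 for F9, 40.9 for F5 and 23.3 for F11. Within libraries Fgb ranked 1 to 2, Fgg 1 to 3, Plg 2 to 4 and Fga 3 to 6, so these neighbours changed places. F2 and Proc each ranked 4 to 6, F9 and F5 8 to 9, and F11 was at 10 in every library. What the length behind the FPKM counts is not known. It equalled the merged GENCODE exons for Fgb, F5 and F9 and exceeded them for the other members (4211 against 3010 bases for Fga). With the length of the principal GENCODE transcript the order at the top changed: Plg stood at 564, Fgg at 543, Fgb at 490 and F2 at 479, while F11 stayed at 10.

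The 3 chains are assembled in equal numbers in the fibrinogen molecule, and the shares of their RNAs were compared per length. Fga made up 12.7% to 17.6% of the summed chain FPKM in DMH libraries, 17.2% to 19.0% in DM libraries and 15.2% to 19.7% in CTL libraries. Fgb made up 49.1% ± 1.53 in DMH libraries, 45.9% ± 1.3 in DM libraries and 44.2% ± 3.51 in CTL libraries (SD, n = 4 each). The ratio of Fgg to Fgb was 0.677 to 0.797 in DMH libraries, 0.719 to 0.87 in DM libraries and 0.727 to 1.03 in CTL libraries. The ratio of Fga to Fgb was 0.254 to 0.367 in DMH libraries and 0.374 to 0.417 in DM libraries, without overlap, and 0.326 to 0.465 in CTL libraries. These ratios were not tested, and their size depends on the gene length used. The FPKM rest on 4211 bases for Fga, 3810 for Fgb and 2385 for Fgg. The principal GENCODE transcripts have 2587, 3810 and 1695 bases. Per length of those transcripts the medians over 12 libraries were 310 for Fga, 490 for Fgb and 543 for Fgg. Unequal shares are therefore not a measure of unequal numbers of chain RNAs. As a share of all counts the chains took 0.186% to 0.328% in DMH libraries, 0.250% to 0.395% in DM libraries and 0.432% to 2.10% in CTL libraries.

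**Figure D4:**
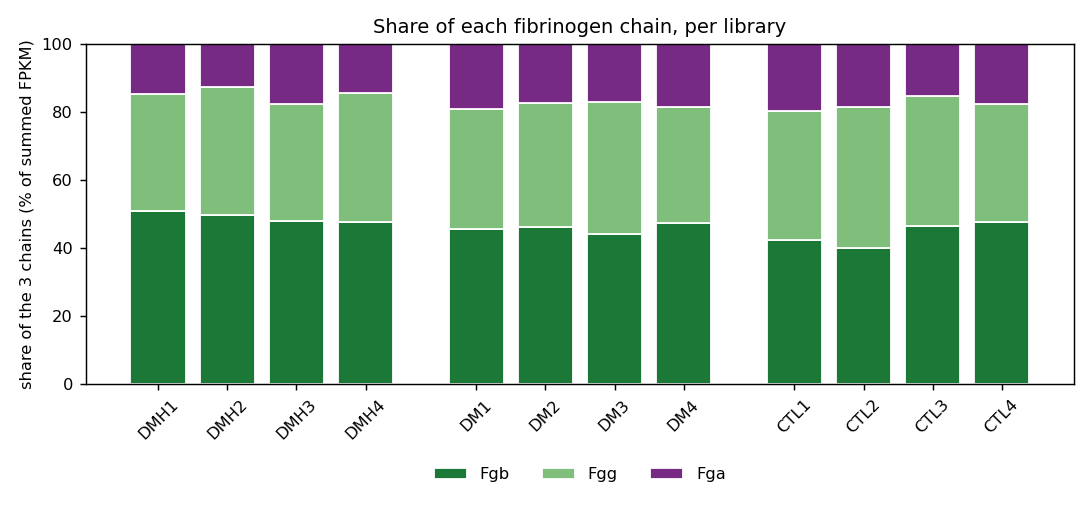
Share of Fgb, Fgg and Fga in their summed deposited FPKM, per library, as stacked bars that reach 100%. The shares depend on the gene length behind the FPKM. Fga is 12.7% to 17.6% in DMH libraries, 17.2% to 19.0% in DM libraries and 15.2% to 19.7% in CTL libraries, CTL1 being the highest at 19.7%.

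Likeness to fibrinogen was measured as the root mean square difference between a gene's log2 CPM, centred on its mean, and the mean centred profile of the 3 chains over the 12 libraries. Each chain is part of that mean, so its distance is small in part by design and not comparable with those of other genes. The chains themselves stood at 0.0902 to 0.146, F2 at 0.458, Plg at 0.527, F9 at 0.668, Serpinc1 at 0.833, F5 at 0.881, Proc at 0.927 and F11 at 1.09. A flat profile would stand at 0.871 and the median tested gene at 0.999, so Proc, F5 and F11 were no nearer than a gene that did not vary. The 5 nearest other genes were Sdc1 (0.253), Cpb2 (0.271), Npc2 (0.275), Cd302 (0.283) and Litaf (0.288). Over the 11 libraries without CTL1 they were Uhmk1 (0.139), Llph-ps2 (0.167), Fam174b (0.172), Hmox2 (0.175) and Gm4204 (0.18), with the flat profile at 0.49, so none of the 5 was shared. There Fgg stood at 0.0942, Fgb at 0.117, Fga at 0.142, F2 at 0.288, Plg at 0.327, F9 at 0.425, Serpinc1 at 0.459, F5 at 0.495, Proc at 0.584 and F11 at 0.96. Uhmk1 had a smaller value than Fga although Fga is part of the mean, and the 2 distances are not of the same kind. Exons of Hmox2 overlap the more abundant Cdip1 (156 CPM) on the other strand, so its counts are uncertain. These are descriptions over libraries that share a scaling.

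The tested genes nearest to the cluster did not pass edgeR's test in any comparison. Of the 2 tested neighbours on each side, Plrg1 lay 5658 bases from Fgb and had a log2 fold change in DMH against CTL of -0.50 ± 0.19 (edgeR adjusted p = 0.0937). Gucy1a1 stood at -0.03 ± 0.33, Lrat at 0.52 ± 0.28 and Tlr2 at -0.74 ± 0.45 in the same comparison (edgeR adjusted p = 0.955, 0.218 and 0.28). These genes lay further off, at 861934, 103750 and 786408 bases from the cluster.

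Other liver-made clotting genes did not pass edgeR's test in DMH against CTL with all libraries: 0 of 8 further clotting and contact factors were called, 4 above 0 and 4 below, and 0 of 9 further inhibitors and regulators, 1 above 0 and 8 below. DESeq2 called 0 of the 8, and 3 of the 9 lower, beside 10.7% of its genes called lower. Without CTL1, F7 (factor VII, which starts the tissue factor arm) was called higher in DMH at 1.23 ± 0.21 (edgeR adjusted p = 0.021), and Proz (protein Z, a cofactor of a factor Xa inhibitor), named after its value was seen, at 0.61 ± 0.16 (edgeR adjusted p = 0.0408). With all libraries F7 gave 0.35 ± 0.44 (edgeR adjusted p = 0.615), with 85.6 ± 21.7 CPM in DMH libraries and 67.2 ± 59.5 CPM in CTL libraries. The thrombin-activated carboxypeptidase gene Cpb2 gave -1.63 ± 0.53 (edgeR adjusted p = 0.0564), or -0.59 ± 0.26 once CTL1 was left out. Of the 3 genes of the vitamin K cycle, which serves the carboxylation (a chemical modification) of the F2, F9 and Proc proteins, 0 were called. F3 (tissue factor, the cell-surface starter of clotting) was the 1 gene called among 10 tested clotting genes of vessel wall, platelets and macrophages, at 4.52 ± 0.772 CPM in DMH libraries and 1.70 ± 0.438 CPM in CTL libraries (log2 fold change 1.41 ± 0.34, edgeR adjusted p = 0.0214). It was called without CTL1 too, at 1.28 ± 0.36 (edgeR adjusted p = 0.0458), and was not called without DMH2 (edgeR adjusted p = 0.0501). Among all tested genes edgeR called 7.25% higher in DMH against CTL with all libraries and 5.28% without CTL1.

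Acute phase genes were lower in DMH than in CTL with all libraries, as the fibrinogen chains were, and how many were called depended on single libraries. Of 18 acute phase genes other than fibrinogen, edgeR called 12 lower and 0 higher in DMH against CTL, with a median log2 fold change of -1.92, and DESeq2 called 6 lower. Without CTL1, 5 were called lower by edgeR and the median was -0.79. The count was 4 without CTL2, 6 without any 1 DM library, 7 without DMH4, and 1 without DMH1, DMH2 or DMH3. Of all tested genes, edgeR called 8.15% lower with all libraries and DESeq2 10.7% of its genes. By edgeR the share was 4.27% without CTL1, 1.73% without CTL2, 5.49% to 6.59% without 1 DM library and 9.23% without DMH4. It was 2.56% without DMH1, 4.23% without DMH2 and 2.76% without DMH3. Hpx (haemopexin) had a log2 fold change of -2.17 ± 0.53 (edgeR adjusted p = 0.0217), which leaving out CTL1 brought to -1.19 ± 0.28 (edgeR adjusted p = 0.0313). The Hpx call ended without DMH2 and without DMH3 (edgeR adjusted p up to 0.0613). For Crp (C-reactive protein) the log2 fold change was -1.39 ± 0.32 (edgeR adjusted p = 0.0181), or -0.94 ± 0.23 in the 11 libraries other than CTL1 (edgeR adjusted p = 0.0352), and the call ended without DMH1 (edgeR adjusted p = 0.0548). Saa1 (serum amyloid A) had 13.9 to 78.3 CPM in DMH libraries, 28.1 to 34.8 CPM in DM libraries and 96.6 to 25737 CPM in CTL libraries, a value that is uncertain because Saa1 and Saa2 are near-identical copies. In DM against CTL, 17 of the 18 lay below 0 and 1 above, with a median log2 fold change of -2.27. There edgeR called 0 and DESeq2 6 lower, beside 0.0683% and 3.1% of all genes each tested. Without CTL1 the DM against CTL median was -1.02, and edgeR called 1 lower, beside 0.0535% of tested genes. In DMH against DM, 15 of the 18 lay above 0 and 3 below, while all 3 fibrinogen chains lay below 0; none of these was called by edgeR or DESeq2, and the difference was not tested. The summed acute phase level was 8007 to 12432 CPM in DMH libraries, 7229 to 10045 CPM in DM libraries and 14261 to 156770 CPM in CTL libraries.

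**Figure D5:**
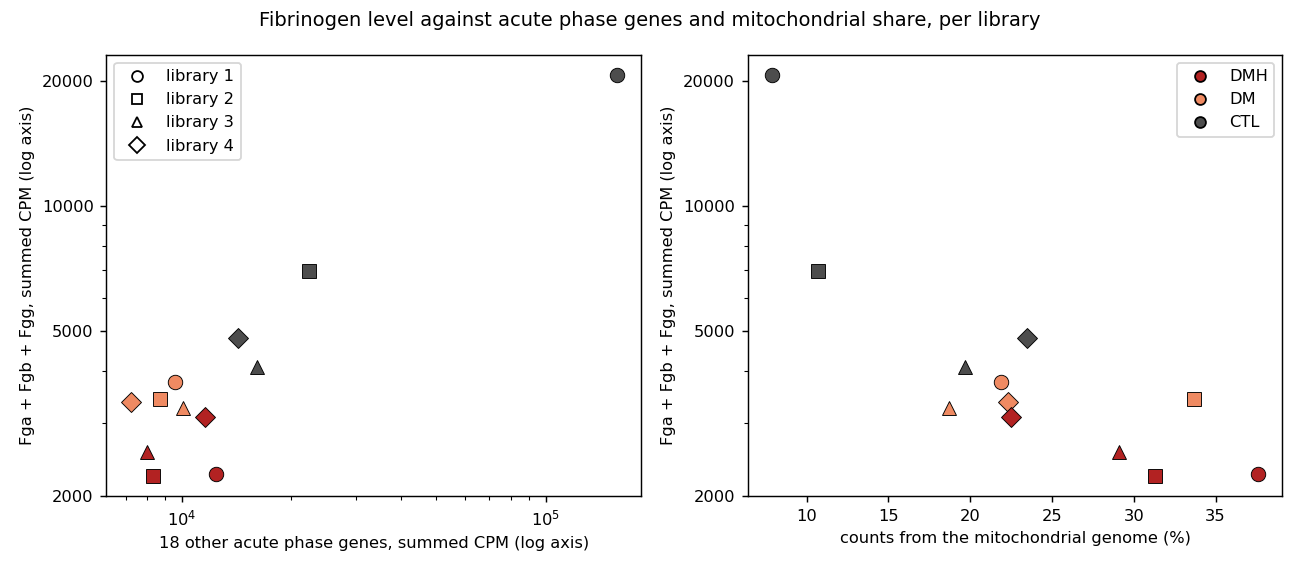
Summed CPM of Fga, Fgb and Fgg per library (log axis) against the summed CPM of 18 other acute phase genes (left, log axis) and against the percentage of counts from the mitochondrial genome (right); colours give the group and symbols the library number. CTL1 is highest on both sums (20726 and 156770 CPM) and lowest in mitochondrial share (7.88%), and DMH1, with the highest mitochondrial share (37.6%), is among the lowest in fibrinogen (2255 CPM).

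Some genes of interleukin signalling and a transcription factor of hepatocytes were called in DMH against CTL. Whether they act on the members in these livers was not tested. Of 10 genes of interleukin-6 and interleukin-1 signalling, 4 were called lower in DMH against CTL and 0 higher: Cebpb at -0.93 ± 0.27, Cebpd at -1.50 ± 0.38, Myd88 at -0.69 ± 0.20 and Nfkbia at -0.63 ± 0.14 (edgeR adjusted p = 0.0394, 0.0253, 0.0392 and 0.0169). Cebpb and Cebpd encode C/EBP transcription factors, and Cebpb had 94.5 ± 43.9 CPM in DMH libraries, 179 ± 9.25 CPM in DM libraries and 180 ± 40.4 CPM in CTL libraries. Socs3, on the same list and not called by edgeR in any comparison with all libraries, had 57.9, 35.7, 14.4 and 36.6 CPM in DMH libraries. It had 10.7 to 14.5 CPM in DM libraries. Its level was 89.9, 18.1, 23.5 and 24.6 CPM in CTL libraries. Of the 10 genes 8 lay below 0 and 2 above (median -0.36), and without CTL1 6 below and 4 above (median -0.13). Without CTL1 only Nfkbia was called of the 10, at -0.57 ± 0.15 (edgeR adjusted p = 0.0409), and without DMH1 none was by edgeR. DESeq2 called the same number, 4. Beside these, edgeR called 8.15% of all tested genes lower with all libraries, 4.27% without CTL1 and 2.56% without DMH1, and DESeq2 10.7% of its genes. In DMH against DM, DESeq2 called 1 of the 10 higher and 2 lower, beside 2.87% of its genes higher and 2.4% lower. There edgeR called 0 of the 10 with all libraries. Leaving out 1 library it called 0 to 2, when 1 to 155 of all tested genes were called. Of 13 transcription factors of hepatocytes, Nr1i3 (the nuclear receptor CAR) was called higher in DMH against CTL at 1.10 ± 0.21 (edgeR adjusted p = 0.012), or 1.06 ± 0.21 with CTL1 left out (edgeR adjusted p = 0.0253). The other 12 did not pass edgeR's test, while DESeq2 called 2 of the 13 higher. Among all tested genes edgeR called 7.25% higher, and DESeq2 10.5% of its genes. Exons of Myd88, Cebpb, Cebpd and Nr1i3 overlap another gene on the opposite strand, which for Myd88 is the more abundant Acaa1a (243 CPM), so those values are uncertain.

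Summed levels of markers of other cell types differed between groups to unlike degrees, and every DMH range overlapped its CTL range. Kupffer cell markers (12 genes) summed to 182 to 685 CPM in DMH libraries, 139 to 269 CPM in DM libraries and 481 to 898 CPM in CTL libraries, so that DM lay below CTL without overlap and DMH overlapped both. In DMH against CTL edgeR called 1 of them lower, C1qc, and 0 without CTL1, while DESeq2 called 6 lower. In DM against CTL edgeR called 0 and DESeq2 11 lower. Neutrophil markers summed to 0.9998 to 16.8 CPM in DMH libraries, 2.16 to 4.97 CPM in DM libraries and 8.52 to 331 CPM in CTL libraries, with 0 of 4 tested called by edgeR. DESeq2 called 3 of these 4 lower in DMH against CTL and 4 in DM against CTL. Platelet markers, which bear on clotting genes made outside hepatocytes, summed to 13.6 to 33.7 CPM in DMH libraries, 7.51 to 15.4 CPM in DM libraries and 16.6 to 36.3 CPM in CTL libraries, with 0 of 4 tested called by edgeR, and 1 lower in DM against CTL by DESeq2. Sinusoidal endothelial markers summed to 167 to 301 CPM in DMH libraries, 168 to 240 CPM in DM libraries and 191 to 338 CPM in CTL libraries, and 0 of 12 were called by edgeR, while DESeq2 called 2 lower in DMH against CTL. Stellate cell markers summed to 124 to 369 CPM in DMH libraries, 160 to 246 CPM in DM libraries and 101 to 421 CPM in CTL libraries, and red cell markers to 156 to 1563 CPM, 113 to 1688 CPM and 91.8 to 2472 CPM in the same groups, with 0 called on either list by edgeR or DESeq2. Of 9 hepatocyte markers, all below 0 in DMH against CTL with a median log2 fold change of -0.52, edgeR called 1 lower, Ahsg (the plasma protein fetuin-A), and DESeq2 called 2. Without CTL1 Ahsg was not called and Cyp3a11 (a drug-metabolising cytochrome P450) was, at -1.62 ± 0.36 (edgeR adjusted p = 0.0267). C1qc, Ahsg and Cyp3a11 were named after their values were seen. Beside the marker counts, edgeR called 8.15% of all tested genes lower in DMH against CTL and 0.0683% in DM against CTL. DESeq2 called 10.7% and 3.1% of its genes lower in these comparisons. The part of these cell types in the fibrinogen result was not tested.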

How the data were processed

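RNA was measured in 12 mouse liver libraries. Per the series' design text and the submitters' processing notes, reads were checked with FastQC 0.11.8, filtered by Trimmomatic 0.36, mapped by HISAT2 2.1.0 (GRCm38) and counted by StringTie; DESeq2 is listed with no role. The authors deposited a whole-number count and an FPKM for each gene and library; the deposited FPKM is the count over a fixed gene length and over the unscaled library total. No source used here gives StringTie's version, annotation or strand setting. Counts were tested in edgeR 4.0.16 (R 4.3.3) using the robust quasi-likelihood F test, TMM factors and filterByExpr (minimum count 10, minimum total 15), in 1 model of 12 libraries with 9 residual degrees of freedom, and Benjamini-Hochberg adjustment over 14643 genes at 0.05. Standard errors are the absolute log2 fold change over the square root of F. The steps were tested on simulated data. There 12% to 15% of genes given a log2 fold change of 1 were called, and 62% to 76% of those given 2. False calls numbered 3 to 6 per comparison, so a gene not called may still have changed. DESeq2 1.42.0 and limma 3.58.1, on log2(FPKM + 1), were alternatives, with other scaling, no filter, fewer libraries, a replicate block and 2 treatments of mitochondrial genes; leaving out CTL1 and CTL2 together was added after seeing the data. Replicate pairs gave 39.5 to 432 for chi-square divided by its degrees of freedom, so none is a copy of another. Named were all members, called genes and the 2 tested genes with the largest absolute change per list and comparison, the 2 tested neighbours on each side of the cluster and the 5 genes most like fibrinogen; marker lists, a departure from the rule, are given by counts and sums, and of the genes so named only those that bear on the members are printed; 1 gene that the rule names is not reported here. The members and lists were chosen with earlier results of these data known. Words of 25 bases shared with other GENCODE M21 genes were 0.325% for F2, 0.518% for F9, 2.61% for Serpinc1 and 0% for the other members.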

Additional observations from a re-analysis of the deposited data

Results flagged for a closer look

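In 3 of the 30 groups of 4 libraries tested for a value far from the others, CTL1 stood apart on the high side; chance flags about 1 in 20 such groups. Fgb had 10024 CPM in CTL1, against 2182 to 3223 CPM in the other CTL libraries, a gap of 0.867 of the group's range, past Dixon's critical value for 4 samples. F9 had 220.0 CPM in CTL1, against 134 to 139 CPM (gap 0.94 of the range). Plg had 3193 CPM in CTL1, against 1667 to 1826 CPM (gap 0.896 of the range). The 3 flags are in 1 library and are not independent.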

How the results depend on the processing

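Same-numbered libraries did not deviate together (correlation -0.13 to 0.11), and the replicate block is given here only. These correlations cannot show whether same-numbered libraries were handled together. In DMH against CTL, 3 members were called, against 0 with the replicate block (edgeR adjusted p = 0.0512 to 0.0597 for the chains), 0 with 8 libraries, 0 with the mitochondrial covariate, 0 without CTL1 and CTL2, 5 by DESeq2, and 0 to 5 leaving out 1 library. In DM against CTL, 0 were called, against 3 by DESeq2. Genes called numbered 32 in DM against CTL (65 with no filter, 868 by DESeq2, 80 by limma, 367 with 8 libraries, 1 with the replicate block, 3 with the covariate, 9 without CTL1 and CTL2, and 7 to 248 leaving out 1 library), 5 in DMH against DM (685 by DESeq2, 1 with the block, 2 with the covariate, 1 to 155 leaving out 1 library) and 2255 in DMH against CTL (1012 by limma, 629 with 8 libraries, 1001 with the block, 0 with the covariate, 5 without CTL1 and CTL2, 623 to 2967 leaving out 1 library). By limma the DMH against CTL calls split into 268 higher and 744 lower, and with 8 libraries into 395 and 234, against 1062 and 1193. DM against CTL split into 13 and 67 by limma, against 22 and 10.

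Values that changed sign were mostly near 0 and none was called. In DM against CTL, F5 was -0.01 and Serpinc1 -0.082 by limma, and F9 0.001 and Serpinc1 -0.021 with the covariate. Leaving out 1 library gave -0.21 to 0.062 for F9 and -0.016 to 0.105 for Serpinc1. Without CTL1 and CTL2, F9 was 0.047, Serpinc1 -0.054, Vkorc1l1 0.051, Procr 0.71 and Cpb2 0.20. In DMH against DM, F2r was 0.002 with other size factors, 0.005 with 8 libraries, 0.004 without mitochondrial genes and -0.12 to 0.11 leaving out 1 library, and Npc2 was 0.05 with the covariate. In DMH against CTL, F5 was 0.013 with other size factors, 0 by DESeq2 and without mitochondrial genes, 0.029 with 8 libraries, 0.05 with the covariate, 0.022 without CTL1 and CTL2 and -0.036 to 0.068 leaving out 1 library. Proc was -0.13 by limma, -0.16 with the covariate, -0.10 without CTL1 and CTL2 and -0.031 to 0.19 leaving out 1 library, and Gucy1a1 was 0.005 with 8 libraries, 0.027 with the block and -0.25 to 0.10 leaving out 1 library. The cause of these differences was not tested. The median log2 fold change of the members kept its sign throughout, and 0 members were called in DMH against DM under any alternative. With 4 libraries a group, p-values near the threshold crossed it when 1 library was left out.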
